A study of Mus musculus with 4 samples.

Results

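The genes described here are the nuclear genes for subunits of the mitochondrial oxidative phosphorylation complexes in Pdgfra-positive mouse lung fibroblasts. They were taken from the expression table by name alone: the Ndufa, Ndufb, Ndufc, Ndufs and Ndufv genes with a number, the Uqcr genes, the genes that begin with Cox4 to Cox8 or with Atp5, and Sdha to Sdhd. Of 23444 gene symbols, 84 matched, and 82 of these are subunits: 35 of complex I, 4 of complex II, 8 of complex III, 20 of complex IV and 15 of complex V. Atp5s and Atp5sl match by name but are not subunits of ATP synthase and were kept apart, at 0.192 to 2.04 FPKM and 0.536 to 1.36 FPKM. The rule reads names and no measured value, but it was set with earlier results of these data known.

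RNA came from Pdgfra-positive fibroblasts of the lungs of wild-type C57BL6 mice, with no treatment named, on embryonic days 16.5 and 18.5 and postnatal days 7 and 28 (E16.5, E18.5, P7 and P28). Pdgfra encodes a receptor for platelet-derived growth factor and marks many mesenchymal cells of the lung. There was 1 library per age, and the sources used here do not give how many animals went into each or how the cells were gated. There is thus no spread between animals and no test, and all differences are between 2 libraries with no replicate check.

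Oxidative phosphorylation passes electrons from NADH through complex I, or from succinate through complex II, to complex III and then to complex IV, which reduces oxygen. Complexes I, III and IV pump protons across the inner mitochondrial membrane, and complex V, the ATP synthase, makes ATP from the return of those protons. Most subunits are encoded in the nucleus and the rest in the mitochondrial genome. The lung passes from low oxygen in the uterus to air at birth, and E18.5 and P7 lie on either side of that step.

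Values are FPKM, the number of fragments scaled by transcript length and by the size of the library, as the authors deposited them, and differences are in log2(FPKM + 1), which understates the fold of low genes. Total FPKM was 100231 at E18.5 and 180010 to 220221 in the other libraries, and most genes were low at E18.5. Each comparison is therefore given as deposited and after median-ratio scaling, in which each library is divided by its median ratio to the mean profile of 7930 genes (factors 1.15, 0.581, 1.38 and 1.08 in order of age). All 7 fibroblast markers were at 1 FPKM or more in every library, and their summed share of FPKM was 1.03%, 1.53%, 1.59% and 3.32% in order of age. Markers of other cells were present and moved with age. At E16.5, all 10 leukocyte markers were at 1 FPKM or more and held 0.916% of FPKM, against 0.0849%, 0.0101% and 2.30% at the later ages; at P28 1 of the 10 was at 1 FPKM or more, Lyz2, which alveolar type 2 cells also express, and S100a8 was listed at 0. The 8 endothelial markers held 0.0128%, 0.0296%, 0.564% and 0.119% in order of age. The 6 erythroid markers held 0.486% at E18.5 and at most 0.0110% elsewhere. At P28 the 4 airway markers held 8.89% and the 6 alveolar type 2 markers 5.57%, against at most 0.0303% and 0.113% at the other ages. The remaining lists (alveolar type 1, mesothelium, pericyte, smooth muscle and striated muscle) each held at most 0.0841%. The part of these cells in the subunit levels was not tested, and fewer cells of a type and less RNA per cell cannot be told apart.

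Subunit transcripts were abundant at all 4 ages. The 82 genes together held 2.16%, 1.64%, 1.65% and 1.22% of all FPKM in order of age. Without the club cell gene Scgb1a1, which alone stood at 19258 FPKM at P28, the P28 share was 1.34%. E16.5 was the highest of the 4 with or without that gene, and E18.5 and P7 were nearly the same. A mean of 5 FPKM or more over the 4 libraries was reached by 73 subunits: 33 of 35 in complex I, all of complexes II, III and V, and 13 of 20 in complex IV. The 9 below it were Ndufa11, Ndufb2, Cox4i2, Cox6a2, Cox7a1, Cox7b2, Cox8b, Cox8c and Ndufa4l2, of which 7 are the tissue isoforms and paralogues described with complex IV. The same minimum left 5804 genes in all as the background, and counts of subunits in the comparisons are of these 73.

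**Figure D1:**
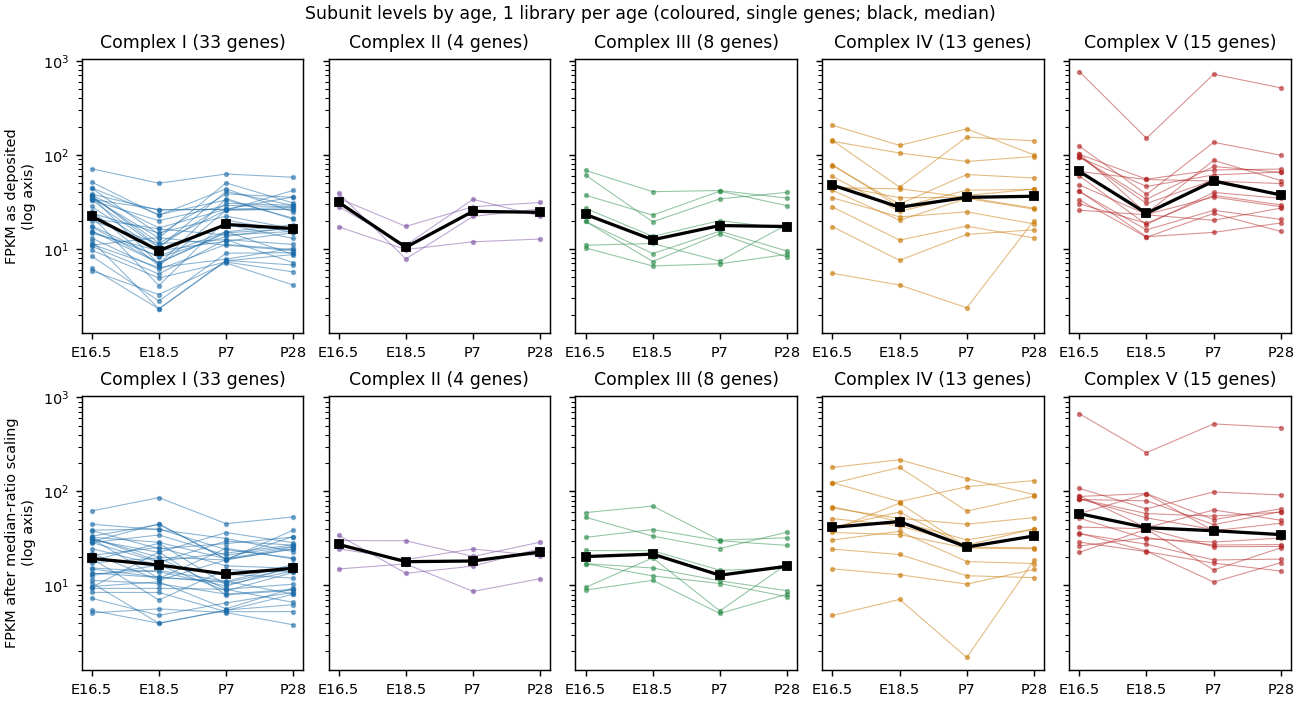
FPKM of the 73 subunit genes with a mean of 5 FPKM or more at the 4 ages (x axis, 1 library each; y axis, FPKM on a log scale), as deposited in the upper panels and after median-ratio scaling in the lower panels. Coloured lines are single genes and black squares the median of the complex; as deposited the E18.5 library is the lowest point of all 5 medians, and after scaling only that of complex II.

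As deposited, subunits were lower at E18.5 than at E16.5 together with most genes. The median difference of the 73 subunits was -1.03, against -0.85 over all 5804 genes. At least 2-fold lower were 40 of the 73, 54.8%, where the background was 40.8%, and 0 were at least 2-fold higher, where the background was 2.58%. After scaling, the subunit median was -0.12 against 0.00 for all genes, with 6 subunits lower (8.22%, background 8.74%) and 1 higher (1.37%, background 8.82%). The 6 lower genes were Atp5b, Ndufs8, Ndufa10, Sdhd, Ndufb7 and Atp5c1, and the 1 higher gene was Ndufs3.

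Between E18.5 and P7, which lie on either side of birth, the direction of the subunits depended on the scaling. As deposited the median was 0.73, below the 1.17 of all genes, with 21 subunits at least 2-fold higher (28.8%, background 59.4%) and 0 lower (background 3.29%). After scaling the median was -0.46 against 0.06 for all genes, with 16 subunits at least 2-fold lower (21.9%, background 10.6%) and 2 higher, Atp5b and Ndufa10 (2.74%, background 13.5%). Relative to the median of all genes, the subunits stood lower at P7. Scaling moves all genes of a library nearly alike, so this holds on both scales by construction. The 16 lower genes were led by Uqcr11 at -1.70, Cox6b2 at -1.58, Cox8a at -1.53, Cox7a2l at -1.51 and Ndufs3 at -1.41. The other 11 were Atp5e, Ndufa2, Atp5d, Ndufa13, Cox6c, Uqcrh, Ndufa1, Uqcrq, Ndufb5, Cox5a and Atp5g2.

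The comparison of P7 with E16.5, which leaves out the E18.5 library, gave the narrowest pattern. After scaling, 68 of 73 subunits were below 0, with a median of -0.59 and an interquartile range of 0.40. Over all genes 2918 of 5804 were below 0, with a median of 0.00 and an interquartile range of 0.80. Few of the differences were large: 6 subunits were at least 2-fold lower (8.22%, background 7.39%) and 0 were higher (background 11.5%). The 6 were Atp5g2, Cox6b1, Cox6b2, Uqcr10, Atp5g3 and Sdhd. As deposited, the subunit median was -0.34 while that of all genes was 0.23, with 1 subunit lower, Atp5g2 (1.37%, background 4.88%), and 0 higher (background 15.6%). The subunits thus stood below the median of all genes, as a shift of many genes by less than 2-fold. Scaling divides all genes of a library by the same factor, so a like gap on either scale is given by construction.

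Between P7 and P28 the subunits moved little. The median was -0.14 as deposited, against -0.37 for all genes, and 0.16 after scaling, against -0.04. As deposited 2 subunits were at least 2-fold higher, Uqcr11 and Cox6b2 (2.74%, background 8.20%), and 0 lower (background 16.5%). After scaling 3 were higher, with Ndufa7 added (4.11%, background 11.0%), and 0 lower (background 9.75%). At P28 against E16.5, the median was -0.43 as deposited and -0.35 after scaling, against -0.09 and 0.00 for all genes. Cox6b2 was the 1 subunit higher on both scales (1.37%, backgrounds 16.0% and 17.1%). As deposited 9 were lower (12.3%, background 14.6%), and after scaling 3, Atp5g3, Uqcrfs1 and Atp5g2 (4.11%, background 12.7%). These comparisons share libraries, so their values are not independent of each other.

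**Figure D2:**
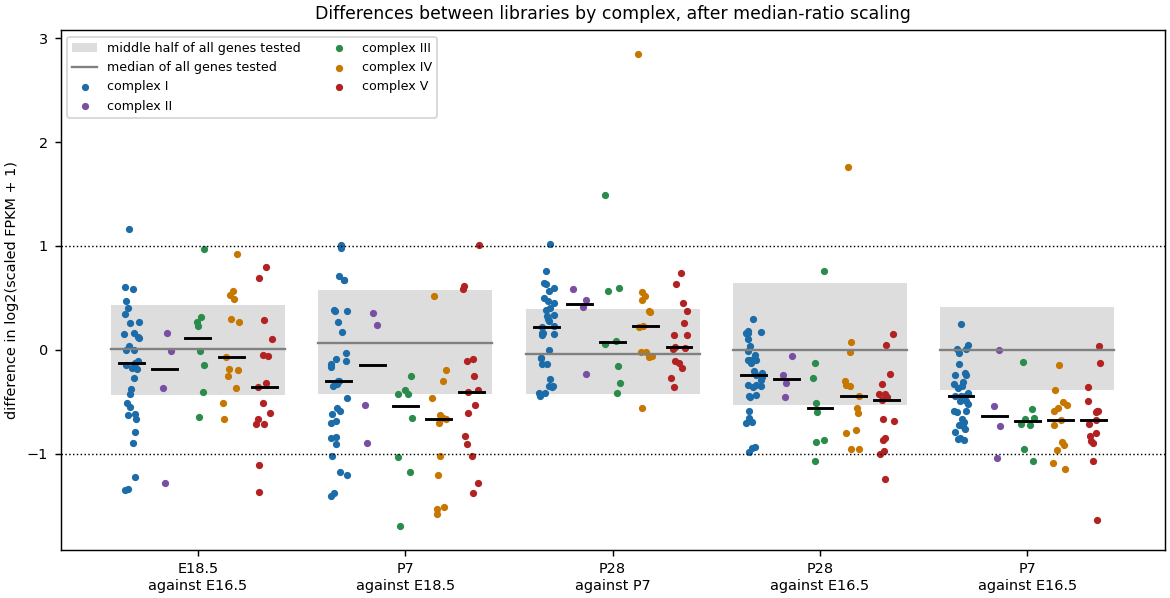
Difference in log2(scaled FPKM + 1) for the 73 subunit genes in the 5 comparisons (x axis), by complex. Points are genes, black bars the median of a complex, grey boxes the middle 50% and grey lines the median of all genes tested, and dotted lines mark a 2-fold difference; at P7 against E16.5 the 5 complexes lie close together and below the grey line, with medians from -0.44 to -0.69.

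Each subunit was also classed by the library in which it stood highest and lowest after scaling. The highest library was E16.5 for 35 subunits (47.9%, background 25.3%), E18.5 for 27 (37.0%, background 24.4%), P7 for 2 (2.74%, background 22.1%) and P28 for 9 (12.3%, background 28.2%). Ndufb4 was among the genes highest at P7. The lowest library was P7 for 39 subunits (53.4%, background 18.3%), P28 for 17 (23.3%, background 29.3%), E18.5 for 16 (21.9%, background 27.5%) and E16.5 for 1, Atp5k (1.37%, background 24.9%). Most subunits were thus highest before birth on this scale, and P7 was the most common lowest library. These are separate counts, and some genes lowest at P7, such as Cox6b2 and Ndufa7, were highest at P28. The comparison between E16.5 and E18.5 varied from gene to gene, as the plot of centred levels shows.

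**Figure D3:**
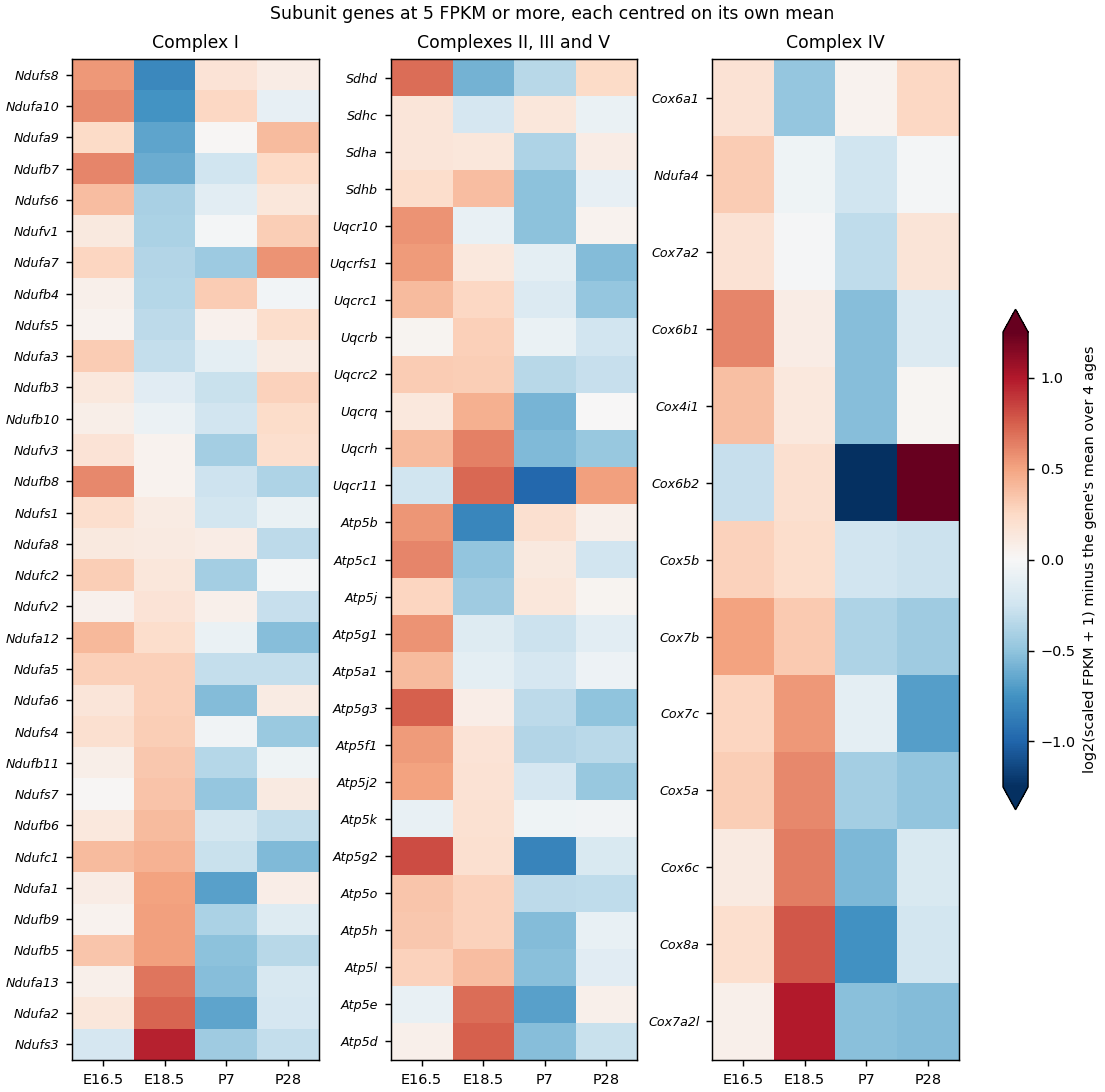
Level of the subunit genes with a mean of 5 FPKM or more, all but 1 of complex I, at the 4 ages (x axis, 1 library each) as log2(scaled FPKM + 1) minus the mean of that gene over the ages; red is above and blue below its own mean, and genes within a complex are ordered by how E18.5 stands to the other ages. Cox6b2 lies beyond the ends of the colour scale, and Atp5b and Ndufs8 (low at E18.5) stand opposite Uqcr11 and Ndufs3 (high at E18.5).

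Complex I, NADH dehydrogenase, takes electrons from NADH and passes them along iron-sulphur clusters to ubiquinone. Its 33 genes above the minimum had scaled medians of -0.12 at E18.5 against E16.5, -0.30 at P7 against E18.5, 0.22 at P28 against P7 and -0.44 at P7 against E16.5. Ndufb9, an accessory subunit, was the most abundant member at 71.1, 49.95, 62.6 and 57.8 FPKM in order of age. Ndufa11, an accessory subunit of the membrane arm, was the least abundant, at 0.764 to 1.71 FPKM. The levels of complex I genes therefore spanned more than an order of magnitude within each library.

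The nuclear-encoded subunits of the catalytic core of complex I that are described here did not move together. Ndufv1, which binds NADH and FMN, was at 8.38, 2.79, 8.996 and 9.11 FPKM in order of age. Ndufs8, which holds iron-sulphur clusters, was at 22.2, 4.07, 20.3 and 15.0 FPKM. In both genes the E18.5 library was the lowest, as deposited and after scaling. At E18.5 against E16.5 Ndufs8 was at -1.35 after scaling, and Ndufv1 at -0.52. Ndufs3, a core subunit of the peripheral arm, went the other way, at 10.97, 13.2, 10.94 and 9.60 FPKM. Of the 73 subunits above the minimum, it was 1 of 2 that were higher at E18.5 than at E16.5 as deposited, and its ratio to Ndufs8, which no scaling of a library changes, was 0.493, 3.24, 0.538 and 0.640 in order of age. Ndufs3 shares exon bases with Kbtbd4 on the opposite strand, has 1 processed pseudogene with 98.6% identity, and no source used here says whether the counting used strand, so its value is uncertain. Ndufs1, the large iron-sulphur subunit, was at 13.0, 6.07, 11.2 and 9.84 FPKM. Ndufs7, which carries the last cluster before ubiquinone, was at 14.6, 9.56, 12.1 and 14.9 FPKM, and Ndufv2, an iron-sulphur subunit next to Ndufv1, at 5.86, 3.27, 7.09 and 4.12 FPKM. These 3 were lowest at E18.5 as deposited, and after scaling Ndufs7 and Ndufv2 were highest there.

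Among the accessory subunits, Ndufa10 had the largest difference at E18.5 as deposited, at 36.2, 6.88, 34.3 and 20.7 FPKM. After scaling it was at -1.34 at E18.5 against E16.5 and at 1.01 at P7 against E18.5. It was lowest at E18.5, and at P28 it was also below E16.5, at -0.69. Ndufb7 was at 12.2, 2.30, 7.47 and 8.71 FPKM, also lowest at E18.5. Ndufa7 was at 36.2, 11.6, 25.7 and 41.9 FPKM and was the 1 complex I gene above the minimum that was at least 2-fold higher at P28 than at P7 after scaling, at 1.02. Ndufb4 was at 35.0, 13.1, 50.4 and 30.8 FPKM and had the highest scaled difference of the 73 subunits above the minimum at P7 against E16.5, at 0.25. Its coding sequence has 1 processed pseudogene with 100% identity, so part of its reads could belong to that copy. Ndufb8 was at 28.3, 9.58, 18.2 and 12.9 FPKM and Ndufa12 at 51.4, 22.8, 43.5 and 24.7 FPKM. At P28 against E16.5 they were at -0.98 and -0.94 after scaling, and Ndufb5, the lowest of the complex above the minimum at P7 against E16.5, was at -0.86 there. Ndufb2 had a mean just under the minimum, at 9.24, 4.02, 1.95 and 4.71 FPKM, and was at -1.91 at P7 against E16.5 and at 1.15 at P28 against P7 after scaling. It shares exon bases with 3 genes, of which Gm42420 lies on the same strand, and has 1 processed pseudogene with 92.1% identity. Ndufb8 shares exon bases with Gm20538 on the same strand, and Ndufa12 has 1 processed pseudogene with 99.5% identity. Part of the reads of these genes could thus belong elsewhere.

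Complex II, succinate dehydrogenase, is the 1 complex with no subunit from the mitochondrial genome, and it is also an enzyme of the tricarboxylic acid cycle. Sdha, the flavoprotein that oxidises succinate, was at 34.5, 17.4, 28.1 and 31.2 FPKM. Sdhb, the iron-sulphur subunit, was at 17.2, 9.84, 11.9 and 12.7 FPKM. Both were lowest at E18.5 as deposited and lowest at P7 after scaling. Of the membrane anchors, Sdhc was at 28.2, 11.0, 33.7 and 22.3 FPKM and Sdhd at 39.3, 7.83, 22.1 and 26.7 FPKM. Sdhd was at -1.28 at E18.5 and at -1.05 at P7, both against E16.5 and after scaling, while Sdhc was at -0.36 and -0.01. The 2 anchors of the same dimer thus differed from each other at P7.

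Complex III, the cytochrome bc1 complex, passes electrons from ubiquinol to cytochrome c. Its 8 genes were all below 0 at P7 against E18.5 after scaling, with a median of -0.54, and all 8 were below 0 at P7 against E16.5, with a median of -0.69. Uqcrc1, a core protein, was at 19.6, 8.91, 15.4 and 9.49 FPKM. Uqcrfs1, the Rieske iron-sulphur protein, was at 19.6, 7.34, 14.5 and 8.19 FPKM. At P28 both were below their E16.5 level, Uqcrc1 by 0.88 and Uqcrfs1 by 1.07 on the scaled log2 scale. Uqcrh, the hinge protein, was the most abundant member by its mean, at 68.4, 40.6, 41.8 and 34.7 FPKM, and Uqcrq the least abundant, at 10.2, 6.59, 6.94 and 8.74 FPKM. Uqcr10 was at 61.0, 19.4, 34.0 and 39.9 FPKM, and Uqcrb at 37.3, 22.9, 41.1 and 28.8 FPKM. Uqcr11, a small subunit of the membrane part, was at 10.9, 11.4, 7.40 and 18.2 FPKM, and it was the 1 member with its lowest value at P7 and its highest at P28 as deposited. It was at -1.70 at P7 against E18.5 and at 1.49 at P28 against P7 after scaling. Its coding sequence has 2 processed pseudogenes with up to 98.8% identity, so part of its reads could belong to them.

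Complex IV, cytochrome c oxidase, passes electrons from cytochrome c to oxygen, and its nuclear subunits surround a core from the mitochondrial genome. Cox7c had the highest mean of the complex, at 207, 126, 189 and 99.96 FPKM. Cox6a1 was at 142, 45.3, 155 and 141 FPKM. Cox8a was at 139, 105, 85.1 and 96.1 FPKM. Cox6a1 was low in the E18.5 library alone, while Cox7c was lowest at P28 and Cox8a at P7. Cox4i1, a regulatory subunit and the common isoform of subunit 4, was at 59.0, 25.1, 37.0 and 43.3 FPKM, and Cox5a, a matrix-side subunit, at 35.0, 21.9, 24.8 and 18.5 FPKM. Cox6b1, which faces the intermembrane space, was at 78.9, 27.8, 42.1 and 42.9 FPKM. Ndufa4, first described with complex I and now counted with complex IV, was at 76.6, 29.97, 61.8 and 56.9 FPKM. Cox7a2l, known for joining complexes III and IV into supercomplexes, was at 44.8, 43.6, 35.3 and 27.2 FPKM. It had the smallest deposited difference of the genes of the complex above the minimum at E18.5 against E16.5, at -0.04, and its ratio to Cox7a2 was 2.60, 5.77, 2.48 and 1.70 in order of age. Cox7a2l has 1 processed pseudogene with 97.7% identity.

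The tissue isoforms of complex IV were compared with their common partner within each library, where scaling has no effect. Cox4i2, an isoform known from lung and from low oxygen, was at 1.73, 0.142, 7.43 and 0.604 FPKM. That was 2.92%, 0.568%, 20.1% and 1.396% of Cox4i1, so the P7 library stood above the other 3. Of the 8 endothelial markers, 6, 7, 8 and 8 were at 1 FPKM or more in order of age. Their summed FPKM was 23.0, 29.7, 1097 and 262, and their share, given above, was highest at P7 at 0.564%. Of the 5 pericyte markers, 4, 3, 5 and 2 were at 1 FPKM or more in order of age. Their summed FPKM was 8.11, 21.3, 23.3 and 19.1, highest at P7. Their share of FPKM was 0.00450%, 0.0213%, 0.0120% and 0.00865%, highest at E18.5. The part of either list in the Cox4i2 level was not tested. Cox6b2, known as the testis isoform of subunit 6B, was at 5.50, 4.13, 2.36 and 20.04 FPKM. That was 6.97%, 14.9%, 5.61% and 46.8% of Cox6b1, and the P28 library was the highest by both measures. Cox6b2 had neither a near copy nor an exon shared with another gene in the annotation used. The P28 library also held the airway and alveolar type 2 markers, and their part in the Cox6b2 level was not tested.

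The end of the coding sequences of the 2 genes for subunit 6B is shown to let their difference be seen. Over the whole coding sequence they share 66.3% of aligned bases. The last 90 coding bases before the stop codon follow, from GENCODE M21 transcripts on GRCm38, with the 38 bases that differ in capitals. Cox6b1 lies on chromosome 7 from 30616861 to 30626151 and Cox6b2 on chromosome 7 from 4751792 to 4753094, both on the minus strand.
Cox6b1: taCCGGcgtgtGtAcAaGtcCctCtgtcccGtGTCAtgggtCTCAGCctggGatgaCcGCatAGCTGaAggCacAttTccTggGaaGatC
Cox6b2: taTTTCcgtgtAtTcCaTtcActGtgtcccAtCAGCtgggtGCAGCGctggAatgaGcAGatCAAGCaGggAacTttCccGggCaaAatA

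The isoforms known from heart and skeletal muscle were rare. Cox6a2 was at 0.306 FPKM at E16.5, listed at 0 at E18.5 and P7, and at 5.30 FPKM at P28, which was 3.76% of Cox6a1. Cox7a1 was at 0.587 FPKM at E16.5, listed at 0 at E18.5, and at 0.569 and 2.11 FPKM at P7 and P28, the last being 13.2% of Cox7a2. Cox8b was listed at 0 at E16.5 and E18.5 and was at 1.89 and 3.16 FPKM at P7 and P28, the last being 3.29% of Cox8a. All 3 had their highest value at P28. The 5 striated muscle markers held 0.00142% of FPKM at P28, with Ckm and Myl2 listed at 0 there, against 0.00745% to 0.0159% at the other ages. Cox7b2 reached 0.356 FPKM at P28, and Cox8c was listed at 0 in all 4 libraries; both are known from testis. Ndufa4l2, a paralogue of Ndufa4 known to be induced by low oxygen, was at 0.397, 2.54, 1.44 and 0.773 FPKM, or 0.519%, 8.48%, 2.34% and 1.36% of Ndufa4, highest at E18.5. Ndufa4l2 shares exon bases with Shmt2 on the opposite strand.

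**Figure D4:**
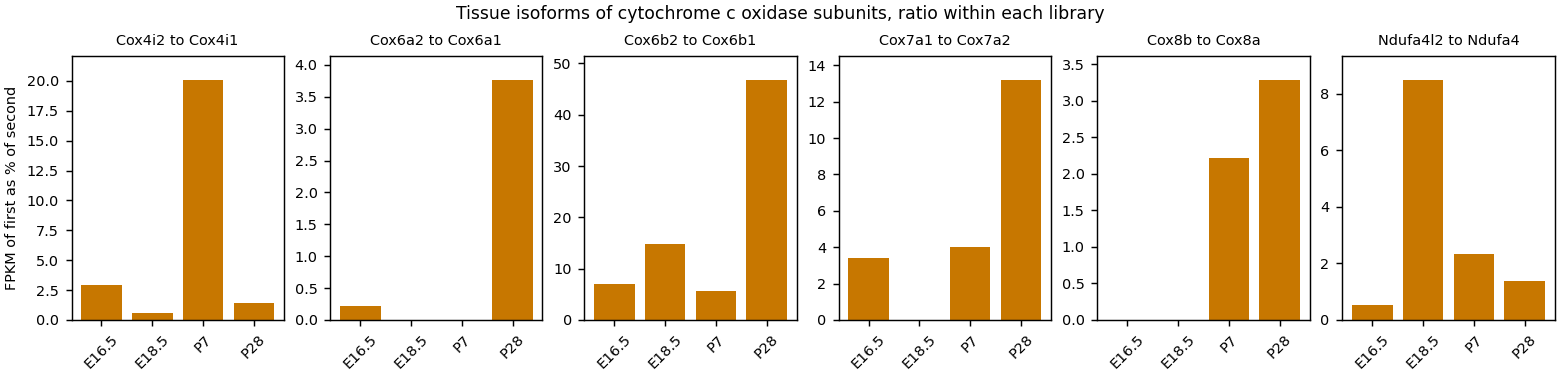
FPKM of each tissue isoform or paralogue of complex IV as a percentage of the FPKM of its common partner in the same library (y axis, linear from 0, a different range in each panel) at the 4 ages (x axis, 1 library per bar). Cox4i2 is highest at P7 at 20.1%, Ndufa4l2 at E18.5 at 8.48%, and Cox6a2, Cox6b2, Cox7a1 and Cox8b at P28, at 3.76%, 46.8%, 13.2% and 3.29%.

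Complex V, the ATP synthase, has a catalytic head in the matrix, a rotor with a ring of c subunits in the membrane and a stalk that holds the head still. Atp5b, the catalytic beta subunit, was the most abundant of all subunits in every library, with 769.6, 150.2, 721 and 517 FPKM over the 4 ages. Atp5a1, the alpha subunit that alternates with beta in the head, was at 95.6, 33.8, 75.2 and 65.2 FPKM. Atp5c1, the gamma shaft, was at 103, 23.9, 87.5 and 53.3 FPKM. All 3 were lowest at E18.5 as deposited, and after scaling Atp5b and Atp5c1 were lowest there and Atp5a1 at P7. Atp5b held 44.5%, 26.9%, 49.6% and 45.7% of the FPKM of complex V, and its ratio to Atp5a1 was 8.05, 4.45, 9.58 and 7.93. Alpha and beta are present in equal numbers in the enzyme, so their FPKM do not stand for their numbers as proteins. Complex V as a whole held 44.6%, 33.9%, 45.3% and 42.0% of subunit FPKM.

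The other subunits of the central stalk differed from Atp5c1. Atp5d, the delta subunit, was at 66.7, 54.7, 52.7 and 49.6 FPKM, and Atp5e, the epsilon subunit, at 25.8, 23.1, 20.2 and 27.2 FPKM. Both were above the other libraries at E18.5 after scaling, and both were at least 2-fold lower at P7 than at E18.5, at -1.28 and -1.38. Atp5k, the e subunit of the membrane part, was at 30.2, 18.7, 37.1 and 29.4 FPKM and was the 1 subunit of complex V above 0 at P7 against E16.5 after scaling, at 0.03. Atp5j2, the f subunit, had the lowest mean of the complex, at 33.2, 13.3, 23.8 and 15.3 FPKM.

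The c subunit of the rotor ring comes from 3 genes that encode the same mature protein behind different targeting peptides. Atp5g1 was at 59.8, 18.2, 39.9 and 34.5 FPKM. Atp5g2 was at 41.3, 13.5, 15.0 and 18.9 FPKM. Atp5g3 was at 95.9, 30.4, 54.2 and 37.5 FPKM. Atp5g3 was the highest of the 3 in every library, with 48.7%, 49.0%, 49.7% and 41.3% of their sum. The share of Atp5g2 was 20.96%, 21.7%, 13.8% and 20.8%, lowest at P7, and that of Atp5g1 was 30.3%, 29.3%, 36.6% and 38.0%. After scaling Atp5g2 was at -1.64 and Atp5g3 at -1.07 at P7 against E16.5, while Atp5g1 was at -0.83.

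The coding ends of the 3 genes are shown because they encode the same residues with different bases. The last 90 coding bases before the stop codon follow, from GENCODE M21 transcripts, with the 24 bases that are not the same in all 3 in capitals. The genes lie on chromosomes 11, 15 and 2 in the order printed.
Atp5g1: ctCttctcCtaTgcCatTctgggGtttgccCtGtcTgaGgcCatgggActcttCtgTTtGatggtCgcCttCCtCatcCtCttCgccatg
Atp5g2: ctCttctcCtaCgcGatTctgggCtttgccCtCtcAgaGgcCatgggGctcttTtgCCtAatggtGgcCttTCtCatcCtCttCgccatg
Atp5g3: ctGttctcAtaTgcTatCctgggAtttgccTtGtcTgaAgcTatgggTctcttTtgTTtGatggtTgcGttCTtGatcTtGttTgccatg
Over the whole coding sequence Atp5g1 and Atp5g2 shared 78.8% of aligned bases, and Atp5g3 shared 72.8% with Atp5g1 and 72.6% with Atp5g2. Processed pseudogenes are nearer: Atp5g1 has 4 with up to 99.8% identity and Atp5g2 has 1 that is identical, and reads from these cannot be told apart from the genes in the deposited values.

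Near copies were counted for all subunits, since the authors' counting could split reads between a gene and its copies. A processed pseudogene with at least 90% identity over at least 80% of the coding sequence was found for 31 of 82 subunits, with the most, 13, for Atp5l. Among subunits above the minimum, the 29 with a copy and the 44 without had scaled medians of -0.68 and -0.58 at P7 against E16.5. At P7 against E18.5 the medians were -0.53 and -0.44. The direction was the same in both sets, and the set with a copy was the lower in each comparison. The part of the copies in the subunit levels was not tested.

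Subunit transcripts are short, and FPKM of short transcripts depends on how the effective length was modelled. The median transcript length was 782 bases for the 73 subunits, from 371 for Atp5k to 3171 for Sdhc, against 2918 bases for all genes tested with a length. Below 800 bases, the scaled median at P7 against E16.5 was -0.68 for 37 subunits, -1.18 for 41 cytosolic ribosomal protein genes and -0.52 for 282 other genes. At P7 against E18.5 the same medians were -0.62, -1.50 and -0.59. Short subunit genes were thus nearer to other short genes than to the median of all genes in these comparisons. From 800 to 1500 bases, 23 subunits stood at -0.59 and 686 other genes at -0.21 at P7 against E16.5, and at -0.47 and -0.02 at P7 against E18.5. From 1500 to 3000 bases, 12 subunits stood at -0.49 and 1883 other genes at -0.01 at P7 against E16.5. Across 5788 genes, which are not independent and share the 2 libraries, Spearman's rho of the difference with length was 0.25 at P7 against E16.5.

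**Figure D5:**
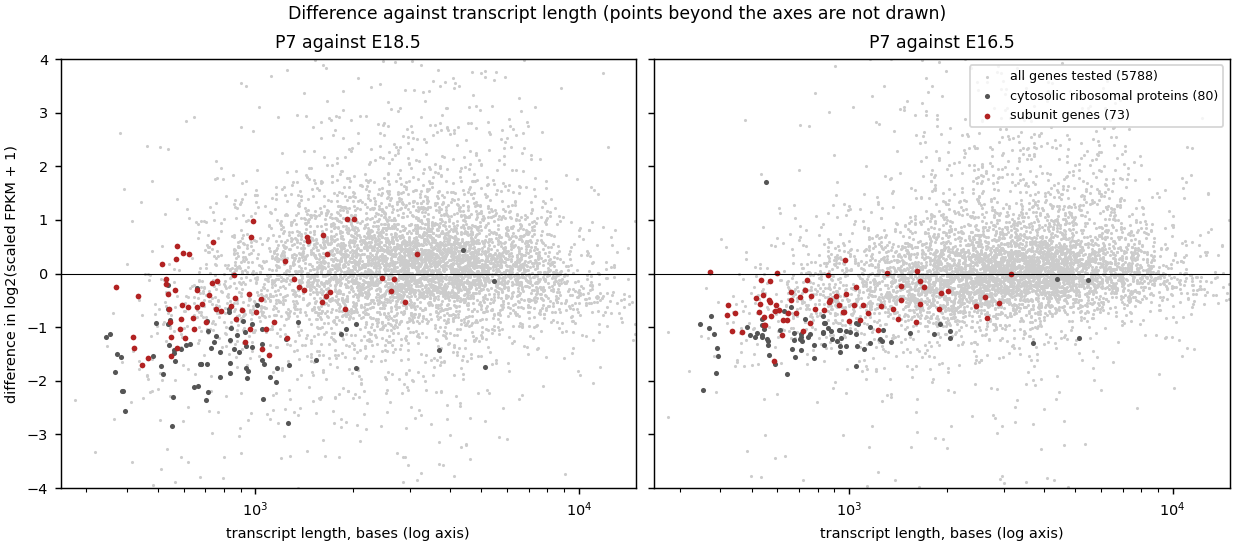
Difference in log2(scaled FPKM + 1) (y axis) against transcript length in bases (x axis, log scale) for P7 against E18.5 and P7 against E16.5. Grey points are the genes tested, dark points cytosolic ribosomal protein genes and red points the 73 subunit genes, which lie among the short transcripts and mostly below 0 in both panels; genes outside the axes are not drawn.

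Promoters were searched for the cores of 2 factors known to act on respiratory chain genes, from RefSeq windows of 250 bases before to 50 after the start on GRCm38.p6. NRF1 was represented by GCATGCGC and its reverse complement GCGCATGC, which can overlap, and ETS factors such as GABPA by CCGGAAG and its reverse complement CTTCCGG. Of 67 subunits with a window, 10 held the NRF1 core (14.9%, against 3.94% of 17492 protein-coding genes) and 16 the ETS core (23.9%, against 13.0%). Atp5k, Atp5l, Cox6a1, Sdhb and Uqcr11 held both (7.46%, against 0.846% of those genes), and 46 held neither (68.7%, against 84.0%). At P7 against E18.5 the scaled median was -0.85 for 9 subunits with the NRF1 core and -0.42 for 53 without, and -0.73 for 16 with the ETS core and -0.41 for 46 without. At P7 against E16.5 these medians were -0.69 and -0.59 for NRF1, and -0.73 and -0.58 for ETS. A match is a match of letters in a window and was not tied to binding.

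Of the 16 subunits with a core in the 150 bases before the start, 4 are shown, with the ETS core in capitals. Their stretches have at most 30 bases in annotated exons, and the most is 23, in Cox6a1. Uqcr11, Atp5e and Uqcrh are among the 16 subunits at least 2-fold lower at P7 than at E18.5 after scaling, and Cox6a1, at 0.52, is not. Those 16 are 21.9% of the 73 subunits (background 10.6%). The 4 were picked by exon overlap, and they do not stand for all subunits with the core. Of the 16 subunits with the ETS core in the whole window, Atp5e, Cox8a, Ndufs3, Uqcr11 and Uqcrh were among the lower genes, and the rest were not. The stretches are chr10:80406822-80406971 for Uqcr11, chr2:174464102-174464251 for Atp5e, chr4:116075071-116075220 for Uqcrh and chr5:115348959-115349108 for Cox6a1, all on the minus strand of GRCm38.p6.
Uqcr11: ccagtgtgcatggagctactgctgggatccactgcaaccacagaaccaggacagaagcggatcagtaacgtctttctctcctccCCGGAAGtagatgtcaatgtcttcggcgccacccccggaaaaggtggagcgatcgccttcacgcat
Atp5e: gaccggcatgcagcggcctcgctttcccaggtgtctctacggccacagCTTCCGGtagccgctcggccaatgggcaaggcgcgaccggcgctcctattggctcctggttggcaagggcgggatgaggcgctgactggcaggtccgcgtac
Uqcrh: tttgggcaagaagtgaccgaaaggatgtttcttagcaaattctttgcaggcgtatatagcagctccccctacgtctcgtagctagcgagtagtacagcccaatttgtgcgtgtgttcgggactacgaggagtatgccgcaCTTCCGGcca
Cox6a1: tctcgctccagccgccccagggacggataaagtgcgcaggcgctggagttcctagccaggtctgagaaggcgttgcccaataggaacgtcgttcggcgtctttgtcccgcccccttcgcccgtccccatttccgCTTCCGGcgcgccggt
The first base of the core lies 66 bases before the start in Uqcr11, 102 in Atp5e, 10 in Uqcrh and 16 in Cox6a1.

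Genes that work beside the subunits were set against them on the scaled values. Of 4 subunits that the name rule does not match, Cyc1, the cytochrome c1 of complex III, was at 56.1, 7.63, 63.6 and 38.8 FPKM, and Ndufab1, the acyl carrier protein of complex I, at 14.6, 2.10, 10.8 and 8.31 FPKM. Both were lowest at E18.5, at -1.82 and -1.57 against E16.5. The other two differed less there: Usmg5, a small membrane subunit of complex V, was at 54.97, 38.4, 54.5 and 29.1 FPKM, or 0.46 against E16.5, and 2010107E04Rik at 50.5, 22.7, 31.2 and 28.8 FPKM, or -0.17. Assembly factors, which build the complexes and are not part of them, were mostly rare: 7 of 39 in the table reached the minimum. Their median was 0.01 at P7 against E18.5 and -0.29 at P7 against E16.5, with 1 of 7 at least 2-fold lower in the first, where the background was 10.6%. That gene was Cox17, a copper chaperone for complex IV, at 18.7, 15.8, 12.8 and 30.1 FPKM. As deposited it was lowest at P7 and highest at P28, like Uqcr11, which after scaling was highest at E18.5.

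Of the regulators of mitochondrial gene expression, 7 of 18 in the table reached the minimum, with medians of 0.01 at P7 against E18.5 and 0.00 at P7 against E16.5. Gabpa, an ETS factor, was at 17.0, 8.60, 22.4 and 10.96 FPKM, and its partner Gabpb1 at 9.10, 6.23, 16.0 and 5.88 FPKM; both were highest at P7 as deposited. Slirp, which binds mitochondrial mRNA, was at 38.0, 12.1, 26.1 and 15.1 FPKM, highest at E16.5. Nrf1 was at 5.08, 2.60, 4.59 and 3.10 FPKM, and the coactivator Ppargc1a at 0.79, 0.77, 0.44 and 1.17 FPKM, both under the minimum.

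The enzymes of the tricarboxylic acid cycle, which feed the chain, had medians of 0.13 at P7 against E18.5 and -0.15 at P7 against E16.5 over 15 of 16 genes, with 0 at least 2-fold apart in either. Ogdh, a component of the 2-oxoglutarate dehydrogenase complex, was at 12.1, 5.72, 20.3 and 25.5 FPKM, 1.09 higher at P28 than at E16.5. Carriers and channels had medians of 0.23 and -0.32 over 9 of 9. Among them the uncoupling protein Ucp2 was at 27.7, 2.23, 39.3 and 22.5 FPKM, Vdac1 of the outer membrane at 75.3, 36.1, 57.4 and 27.5 FPKM, and Atpif1, the inhibitor of ATP synthase, at 150.2, 80.9, 144 and 61.2 FPKM. Vdac1 and Atpif1 were lowest at P28, at -1.33 and -1.19 against E16.5. Mitochondrial ribosomal proteins stood at 0.30 and -0.34 over 37 of 76.

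Glycolytic genes differed more from E16.5 than the subunits did. Over 10 of 15 genes, the scaled median was -1.19, -1.48 and -1.37 for E18.5, P7 and P28, each against E16.5, and 8 of the 10 were at least 2-fold lower at P7, where the background was 7.39%. Gapdh was at 357, 65.1, 161 and 88.2 FPKM, Eno1 at 26.1, 6.19, 5.87 and 8.51 FPKM, and the glucose transporter Slc2a1 at 22.7, 22.8, 2.85 and 7.06 FPKM. The E16.5 library was the highest for Gapdh and Eno1. The subunit median in the same comparisons was -0.12, -0.59 and -0.35. The E16.5 library also held the highest count of leukocyte markers, and their part in this difference was not tested. Cytosolic ribosomal proteins stood at -1.44 at P7 against E18.5 and -1.15 at P7 against E16.5 over 80 of 98, and proteasome subunits at 0.19 and -0.40 over 33 of 40.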

How the data were processed

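The deposited table holds FPKM, computed and scaled by the authors before deposit, for 23931 entries in 4 columns, 1 per age. Per the submitters' processing notes, the tools were TopHat and TopHat2 2.0.9, with GRCm38 and mm10 as builds. No source used here names the program behind the FPKM. Read totals were not used here, so the depth per library is unknown. Steps between values below 0.1 FPKM gave ratios of the E16.5 depth to that of E18.5, P7 and P28 of 1.42, 0.953 and 1.06. The table held 0 genes of the mitochondrial genome.

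Where a symbol had several entries (258 symbols), their FPKM were added. Differences are of log2(FPKM + 1) among genes with a mean of 5 FPKM or more, and called means at least 2-fold. Median-ratio scaling used genes that reached 1 FPKM in each of the 4 libraries and was tested on simulated data. The simulation had little noise and as many genes raised as lowered, so it cannot show how the scaling behaves in these libraries. Named are the catalytic cores, isoform pairs, the extremes of each complex by level and by comparison, subunits called against the median, and up to 3 genes of other lists; 1 gene under this rule is not reported here. Nrf1, Ppargc1a and the remaining called genes were added after their values were seen. The members and lists were chosen with earlier results of these data known. Lengths and coding sequences came from GENCODE M21 (all 82 matched) and promoters from RefSeq. The alternatives were pseudocounts of 0.1 and 5 FPKM, no minimum, a minimum of 20 FPKM, upper-quartile scaling and single entries. Python 3.11.15, numpy 2.4.6, pandas 2.3.3, matplotlib 3.10.9, Biopython 1.88 and BLAST 2.17.0 were used.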

Additional observations from a re-analysis of the deposited data

How the results depend on the processing

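Values are set against the deposited FPKM with a pseudocount of 1 and a minimum of 5. The median of the subunits at E18.5 against E16.5 (-1.03) was -1.10 and -0.82 with pseudocounts of 0.1 and 5, -1.01 with no minimum, -1.20 with a minimum of 20, and -0.12 and -0.10 with median-ratio and upper-quartile scaling. At P7 against E18.5 (0.73) it was 0.77, 0.55, 0.66 and 0.74, and it changed sign to -0.46 and -0.57 with the 2 scalings. At P28 against P7 (-0.14) it was -0.16, -0.12, -0.12 and -0.13, and it changed sign to 0.16 and 0.14 with the scalings and 0.14 with median-ratio scaling without the E18.5 library, an alternative chosen after seeing the data. At P28 against E16.5 (-0.43) it was -0.45, -0.38, -0.42, -0.51, -0.35, -0.45 and -0.37 in the same order. At P7 against E16.5 (-0.34) it was -0.29 with a pseudocount of 5, -0.33 with no minimum, and -0.59, -0.67 and -0.58 with the scalings. The sign changes follow from the factors of the libraries compared, which shift all genes of a library nearly alike.

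The counts at least 2-fold apart moved in the same way. At E18.5 against E16.5, 1 subunit was higher with no minimum and with either scaling, and 6 were lower with either scaling. At P7 against E18.5, 2 and 0 were higher and 16 and 18 lower with median-ratio and upper-quartile scaling. At P28 against P7, 1 was higher with a pseudocount of 5 and 0 with a minimum of 20, and 1 was lower with no minimum. At P28 against E16.5, 3 were higher with no minimum and 0 with a minimum of 20, and 2 were lower with a pseudocount of 5, 3 with median-ratio scaling and 5 without E18.5. At P7 against E16.5, 2 were higher with no minimum, and 2 were lower with a pseudocount of 0.1, 2 with no minimum, 6 with median-ratio scaling, 8 with upper-quartile scaling and 6 without E18.5. Taking single entries changed no value, as each subunit has 1 entry. The median at P7 against E16.5 was below 0 in all of these settings.

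No paired analysis was possible because each age has 1 library and the labels give no replicate numbers, and for the same reason leaving out a replicate was not run. With 1 library per age, neither variation between animals nor preparation can be told apart from age. Values below about 1 FPKM, which include Cox7b2 and most values of Cox6a2 and Cox7a1, rest on few reads.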
